A study of Mus musculus with 44 samples.

Results

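Potassium channel genes were taken here as all protein-coding genes whose symbol starts with Kcn, which are the genes of the pore-forming subunits of potassium channels and of most of their auxiliary subunits. They were 94 of the 27179 genes counted, and they were grouped by symbol into 15 subfamilies plus Kcnrg, a gene for a soluble regulator of channel assembly. Another 4 genes with such a symbol are lncRNAs and were left out. Potassium channels let potassium leave the cell and so set the resting potential, repolarize the action potential and limit repetitive firing. In the hippocampus, A-type channels of the Kcnd genes with their Kcnip subunits damp signals in the dendrites of pyramidal cells, Kcna channels act in axons, and inward rectifiers of the Kcnj genes serve both neurons and astrocytes. Channel function can change after learning through the channel proteins and through their transcripts, and only transcripts were measured here.

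The transcripts came from the dorsal hippocampus of adult WT mice and of mice with the genotype Kdm5bDARID/DARID, called mutants. Both genotypes were on a C57BL/6J and 129S2/Sv F2 background. The mutant allele lacks exons of Kdm5b, a histone H3 lysine 4 demethylase, in every cell and throughout life, so that an early and an adult effect cannot be told apart. It came from a C57BL/6J parent and the WT allele from a 129S2/Sv parent. Genes near Kdm5b were inherited with it, so strain and genotype cannot be told apart there. Kcnj9, Kcnj13, Kcnk2 and Kcnt2 are among the members on the same chromosome as Kdm5b. Naive mice (0 h) were compared with mice killed 1 h or 3 h after contextual fear conditioning, in which foot shocks are given in a chamber. Each of the 6 groups held 6 mice, 3 labelled male and 3 labelled female, with 1 library per mouse.

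Library totals ran from 40274435 to 107000233 counts, with the highest group median in WT mice at 3 h (81589026) and the lowest in mutants at 3 h (61390777). Levels are given in CPM, counts scaled to library size with TMM factors. Genes are compared with each other only per kilobase (kb) of exon, taken as the union of all annotated exons of a gene. Sex transcripts went against the label in 2 libraries, WT 1 h male 1 and mutant 3 h female 2, which were kept as labelled. The labelled male was low in Y-linked transcripts and the labelled female high. Genotype and time of these 2 libraries are thus uncertain too, and an exchange of labels was not tested. A sum of 6 transcripts that follow neuronal activity was lowest at 264 CPM in WT 1 h libraries (median 571). In mutant 3 h libraries its highest was 742 CPM (median 280). Counts of libraries below follow the labels. Kdm5b itself was at 79.4 to 97.0 CPM in WT libraries and 75.8 to 93.8 CPM in mutant libraries (log2 fold change −0.08, SE 0.02, edgeR adjusted p 0.0694). Its count covers the whole gene and so does not check the deletion. Markers of CA1 (4 genes, 573 to 1004 CPM in sum), CA3 (4 genes, 157 to 255 CPM) and dentate granule cells (4 genes, 145 to 369 CPM) were present in every library. The sum of 6 choroid plexus markers, which are no part of hippocampus, ran from 42.9 to 7923 CPM. Tissue RNA is measured in bulk, so fewer cells of a type and less RNA per cell cannot be told apart.

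The genes on which the comparison of trained with naive mice turned included Kcng2, Kcnip2, Kcnk1 and, short of the threshold, Kcnip3. The RefSeq promoter table (GRCm38.p6) held an entry for 69 of the 94 genes, with 94 start sites. The 250 bases upstream of a start site are shown for genes that moved together, Kcnip2 and Kcnk1, and for Kcnip3, which lay in the other direction. Kcnip3 has 3 start sites in the table, and the most upstream is shown. Each sequence reads 5′ to 3′ on the gene's strand and ends at the base before the start site, and capitals mark a match to one of the motifs named after it. The windows are chr19:45816064-45816313 (minus strand) for Kcnip2, chr8:125994852-125995101 (plus strand) for Kcnk1 and chr2:127522095-127522344 (minus strand) for Kcnip3. The windows of Kcnip2 and Kcnk1 lie within the annotated spans of their genes, so the start sites that the table gives are downstream of the outermost annotated start.

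Kcnip2: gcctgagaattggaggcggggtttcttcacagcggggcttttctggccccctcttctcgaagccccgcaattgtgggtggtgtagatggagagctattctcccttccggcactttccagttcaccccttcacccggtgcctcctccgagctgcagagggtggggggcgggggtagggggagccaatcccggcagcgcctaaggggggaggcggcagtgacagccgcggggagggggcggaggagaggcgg

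Kcnk1: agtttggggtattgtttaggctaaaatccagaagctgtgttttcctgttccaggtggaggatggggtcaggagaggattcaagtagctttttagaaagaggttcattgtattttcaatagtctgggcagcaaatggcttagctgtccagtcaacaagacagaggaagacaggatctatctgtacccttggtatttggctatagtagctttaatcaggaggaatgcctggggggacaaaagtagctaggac

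Kcnip3: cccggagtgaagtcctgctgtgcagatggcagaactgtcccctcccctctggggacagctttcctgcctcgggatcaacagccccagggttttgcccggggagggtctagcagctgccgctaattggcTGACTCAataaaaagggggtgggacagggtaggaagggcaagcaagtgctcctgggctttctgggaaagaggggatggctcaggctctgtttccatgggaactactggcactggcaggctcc

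Motifs of factors that neuronal activity induces or activates were searched on both strands. The full cAMP response element, TGACGTCA, stood in 0 of the 94 windows and in 1.55% of the windows of 32851 promoters in the table. Its shorter form, TGACG, which the full element contains, stood in 15 of 94 and in 17.8% of all. The AP-1 motif TGANTCA, bound by Fos and Jun proteins, stood in 4 of 94 and in 6.75% of all, and 1 of the 4 is the match in the Kcnip3 window, which begins 122 bases before the start site. The Egr motif GCGNGGGCG stood in 3 of 94 and in 4.70% of all. The Kcnip2 and Kcnk1 windows and the other Kcnip3 windows hold none of these letters. A match is a description of the sequence and not a site of binding.

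Most potassium channel genes were transcribed in this tissue, and a few of them held most of the level. Of the 94 genes, 75 averaged over 1 CPM across the 36 libraries, 54 over 10 CPM and 14 over 100 CPM, and 83 had counts in every library. Together they took 0.493% to 0.542% of the counts of a library. Summed per kb of exon, the 10 highest genes held 52.2% of the level of all 94. Within a group, libraries differed by a median coefficient of variation of 12.7% over the genes above 1 CPM.

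Among auxiliary subunits, Kcnab2, whose protein binds the inner face of Kcna channels, stood far above every other gene at 157 CPM per kb, and Kcnab1 (18.7) and Kcnab3 (11.4) were lower. Its libraries ran from 713 to 1000 CPM with no gap between groups. The calcium-binding Kcnip subunits followed with Kcnip2 at 25.9, Kcnip3 at 19.9, Kcnip4 at 13.6 and Kcnip1 at 2.76 CPM per kb. Kcnmb4, the neuronal auxiliary subunit of the calcium-activated BK channel, was at 5.99 CPM per kb beside 6.34 for Kcnma1, which encodes its pore.

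Among voltage-gated pore subunits the highest level per kb was that of Kcna1 (52.7 CPM per kb), the axonal channel Kv1.1. Kcnd2, the main A-type channel of pyramidal cell dendrites, was at 32.3, against 9.83 for Kcnd3 and 1.15 for Kcnd1. Kcnh3, a member of the EAG family, was at 18.1 CPM per kb, and Kcnq3, whose product carries part of the M-current, at 4.29. The 10 genes of the electrically silent subfamilies, whose products form no channel alone but change Kcnb channels, were led by Kcng2 at 12.7, with Kcnv1 at 11.5 and Kcnf1 at 11.1.

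Among the channels that set the resting potential, Kcnk1, which encodes the leak channel TWIK-1, was at 45.1 CPM per kb, and the next Kcnk gene, Kcnk2, was at 10.6. Kcnj10, the astrocyte channel that clears potassium released by neurons, was at 41.9, and Kcnj4, a neuronal inward rectifier, at 38.9. Kcnj9, a subunit of channels opened by G proteins, was at 20.8, with Kcnj3 at 13.5 and Kcnj6 at 8.35. The calcium-activated Kcnn2 was at 6.78, the sodium-activated Kcnt1 at 5.32, and Kcnrg at 0.463 CPM per kb. A further 9 genes were too low to be tested, namely Kcna7, Kcna10, Kcne1, Kcnj1, Kcnj15, Kcnk15, Kcnk16, Kcnk18 and Kcnmb3. No library held more than 14 counts of any of these 9, and a count of 0 allows up to 3 counts in that library, for counting error only.

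**Figure D1:**
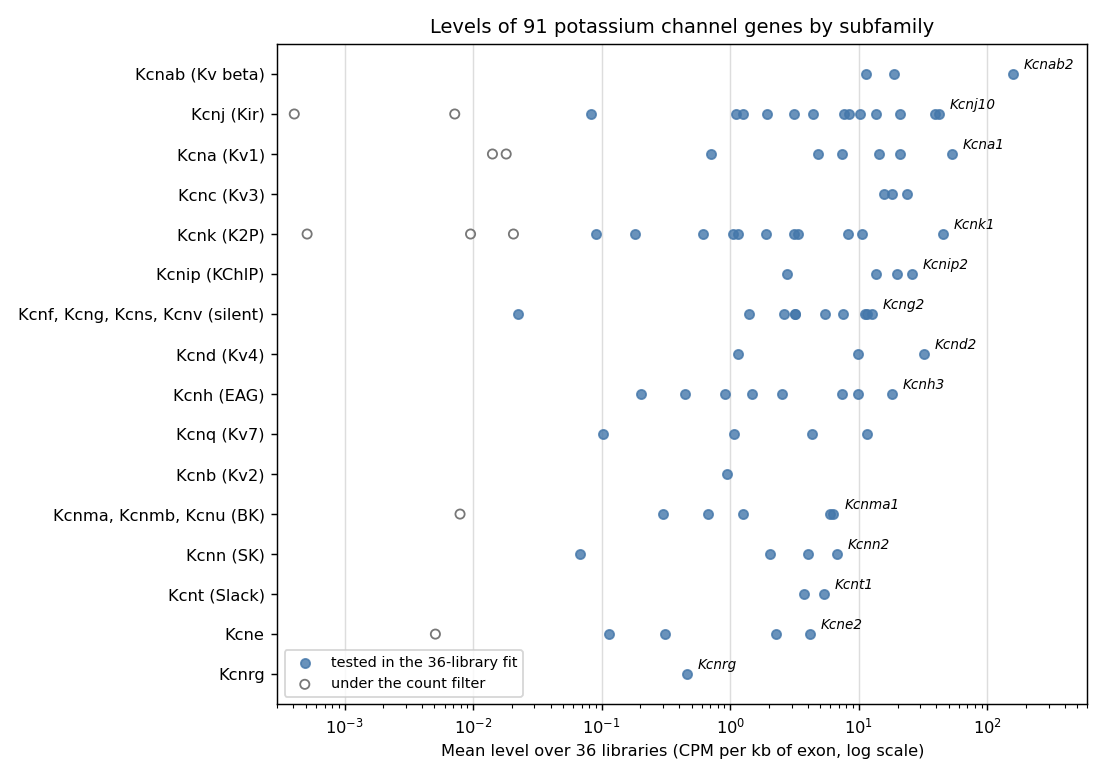
Mean level of 91 of the 94 genes over 36 libraries in CPM per kb of exon (log axis), 1 row per subfamily in order of summed level, with the highest gene of most rows named. Filled points are 82 genes tested in the fit of all libraries and open points the 9 below its count filter. Kcnab2 lies alone at 157, and the leading genes of the other groups lie between 0.463 (Kcnrg) and 52.7 (Kcna1).

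Trained and naive mice were compared to find which of these transcripts change after training. Naive mice came from the home cage, so learning, foot shock, handling and a new chamber cannot be told apart. Across both genotypes, 4 potassium channel genes rose by 3 h after training, by 0.19 to 0.32 on the log2 scale. Among them were Kcng2, Kcnip2 and Kcnk1. edgeR called no member lower. The called genes were 4 of 85 tested in the fit of all 36 libraries (edgeR quasi-likelihood test, Benjamini-Hochberg adjusted p under 0.05 over all genes), or 4.71%, against 2.39% of the 18186 genes tested. DESeq2 called 5 members, Kcnip3 among them and lower, or 6.41% of the 78 with an adjusted p, against 5.34% of all genes. The differences between these shares were not tested. At an unadjusted p under 0.05 the members were 12 of 85, 8 higher and 4 lower, or 14.1%, against 15.8% of all genes, so the members' share was below that of all genes. The median log2 fold change of the members was 0.03, and that of all genes −0.01. The study named Kcng2, Kcnk1, Kcnip3 and Kcnk12 in lists it chose on these same libraries, and Kcnip2 was named from an earlier analysis of them, so the direction of these 5 genes is not independent evidence. The 0 h libraries are shared by the comparisons at 1 h and 3 h.

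Kcng2 (gene 240444, chromosome 18) encodes an electrically silent subunit that joins Kcnb channels. Its level in WT mice, as lowest, median and highest of 6 libraries, was 26.7, 33.9 and 42.5 CPM at 0 h, 33.3, 35.3 and 39.1 CPM at 1 h, and 38.1, 40.5 and 46.8 CPM at 3 h. In mutants it was 30.1, 34.3 and 36.6 CPM at 0 h, 36.8, 39.5 and 44.7 CPM at 1 h, and 35.6, 43.5 and 50.6 CPM at 3 h. In mutants all 6 libraries at 1 h and 5 of 6 at 3 h lay above every naive library, while in WT mice 2 of 6 did at 3 h and 0 at 1 h. Over both genotypes Kcng2 rose by 0.32 on the log2 scale at 3 h (SE 0.06, edgeR adjusted p 0.00314). The value at 1 h, 0.15 (SE 0.06), was not called (edgeR adjusted p 0.217). Its interaction with genotype was not called at either time. The gene overlaps 2 lncRNA genes in the annotation, and reads cannot be assigned between them here.

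Kcnip2 (gene 80906, chr19:45792346-45816422) encodes the subunit KChIP2, which brings Kcnd channels to the membrane and shapes their inactivation. Its WT levels were 73.1, 80.3 and 92.6 CPM at 0 h, 73.2, 88.1 and 99.6 CPM at 1 h, and 93.5, 95.1 and 103 CPM at 3 h. Mutant levels were 76.8, 82.2 and 93.6 CPM at 0 h, 78.3, 88.9 and 109.9 CPM at 1 h, and 88.0, 102 and 109 CPM at 3 h. At 3 h the 6 WT libraries lay above all naive WT libraries and 5 of 6 mutant libraries above all naive mutants, whereas at 1 h the groups overlapped broadly. Over both genotypes Kcnip2 rose by 0.25 on the log2 scale at 3 h (SE 0.05, edgeR adjusted p 0.00768), while the 1 h value of 0.11 (SE 0.05) was not called (adjusted p 0.381). The 3 h values within each genotype were 0.26 (SE 0.05) in WT mice and 0.25 (SE 0.07) in mutants. The Kcnd genes, whose products it binds, had 3 h values of 0.05 (Kcnd2), 0.02 (Kcnd3) and −0.04 (Kcnd1), none of them called.

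Kcnk1 (gene 16525, chr8:125993655-126030685) was at 80.6, 96.2 and 119.5 CPM in naive WT mice, at 94.4, 100.9 and 107 CPM at 1 h, within the naive range, and at 94.6, 112 and 116 CPM at 3 h. In mutants it was at 84.1, 91.6 and 100.2 CPM at 0 h, 99.2, 100.4 and 110.0 CPM at 1 h, and 96.3, 106 and 112 CPM at 3 h. The WT groups overlap, and 1 naive library, WT 0 h female 2, was the highest of all 36, while in mutants 4 of 6 libraries at 3 h lay above every naive one. The log2 fold change at 3 h was 0.19 (SE 0.04, edgeR adjusted p 0.0159), and it was not called in the fit of the 24 libraries of 0 h and 3 h (adjusted p 0.0668). At 1 h it was 0.11 (SE 0.04, adjusted p 0.248), and without the library WT 0 h female 2 it was 0.15 (adjusted p 0.022).

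Kcnip3 (gene 56461, chr2:127456498-127522094) lay in the other direction from Kcnip2. It encodes KChIP3, known also as calsenilin and as the calcium-regulated transcriptional repressor DREAM. Its WT levels were 62.3, 73.0 and 92.3 CPM at 0 h, 54.2, 60.6 and 72.0 CPM at 1 h, and 48.7, 64.6 and 70.8 CPM at 3 h. Mutant levels were 68.5, 76.3 and 100.2 CPM at 0 h, 66.4, 76.8 and 90.0 CPM at 1 h, and 59.1, 61.2 and 89.0 CPM at 3 h. Mutant libraries were thus near their naive level at 1 h, where 3 of 6 WT libraries were already below every naive WT library. The log2 fold change at 3 h was −0.27 (SE 0.08, edgeR adjusted p 0.055), short of the threshold. It passed in 4 of 8 other settings, DESeq2 among them (adjusted p 0.0152). It also passed in 4 fits that left out 1 library, with adjusted p 0.0113 without mutant 3 h female 1, 0.0339 without mutant 0 h female 2, 0.0351 without WT 0 h female 3 and 0.0487 without WT 0 h female 2. The gene overlaps 1 lncRNA gene.

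**Figure D2:**
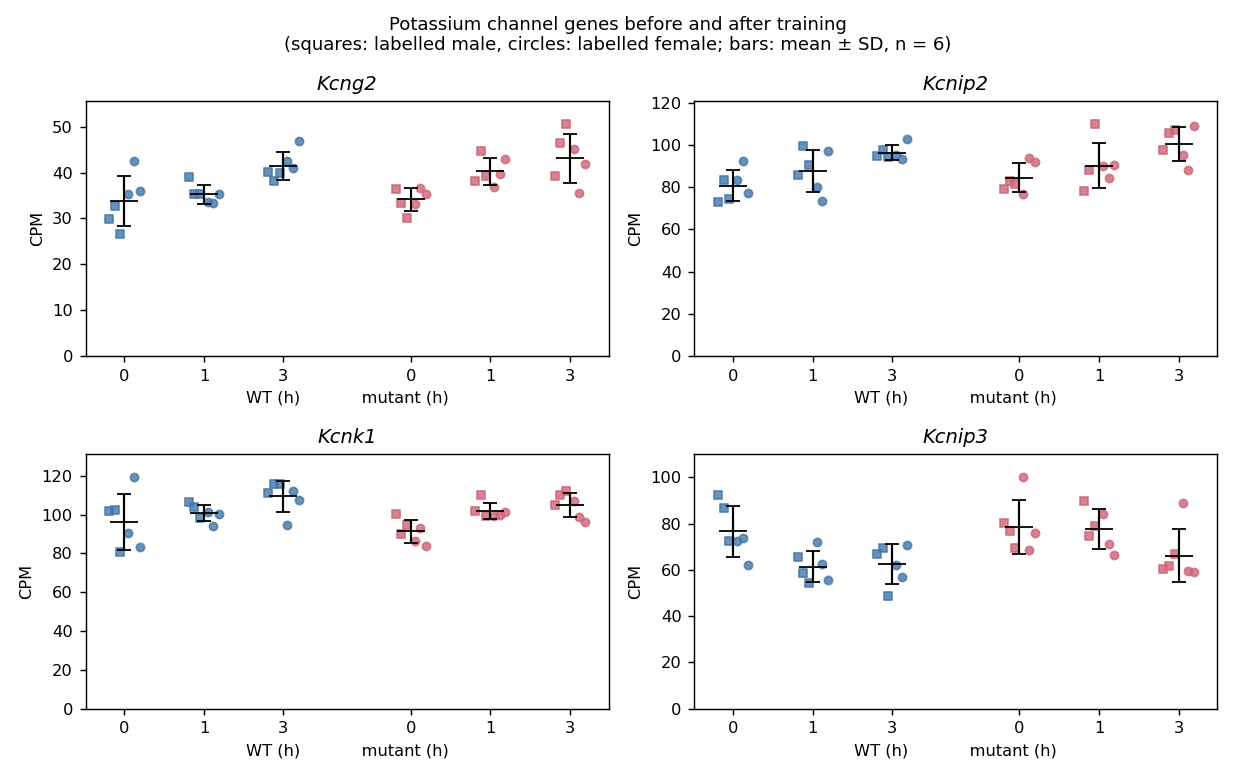
Level in CPM of 4 potassium channel genes in each of the 36 libraries, by genotype (blue WT, red mutant) and hours after training, with bars for mean ± SD of 6. Kcng2, Kcnip2 and Kcnk1 have higher means at 3 h than in naive mice of either genotype, and Kcnip3 in mutants has 1 library at 89.0 CPM at 3 h while the others lie at 66.7 or below.

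Within a single genotype no member passed the threshold at either time. In WT mice at 3 h the members called were 0 of 85, as were 0% of all genes with edgeR, and 9 had an unadjusted p under 0.05, or 10.6% against 8.23% of all genes, and 14, or 16.5% against 10.3%, without the library WT 0 h female 2. DESeq2 called 4 members, or 5.33% of the 75 with an adjusted p, against 0.523% of all genes. Among the 4 were Kcng2, Kcnip2 and Kcnj14. edgeR called Kcnip2 when the library WT 0 h female 2 was left out (log2 fold change 0.29, adjusted p 0.0472). The edgeR values were 0.26 for Kcnip2 and 0.30 (SE 0.07) for Kcng2, with unadjusted p of 0.000214 and 0.000587. In mutants at 3 h the members called were 0 of 83, as were 0% of all genes, and 6 had an unadjusted p under 0.05, or 7.23% against 8.57%. Without mutant 3 h female 2 the members under 0.05 were 13, or 15.7% against 11.2% of all genes in that fit. With all 12 libraries DESeq2 called Kcng2 and Kcnk1, or 2.56% of the 78 members with an adjusted p, against 0.82% of all genes. Their edgeR values were 0.33 (SE 0.08, p 0.00111) for Kcng2 and 0.20 (SE 0.04, p 0.000384) for Kcnk1, and Kcnip2 was at 0.25 (SE 0.07, p 0.00202).

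At 1 h within a genotype the members' shares lay near those of all genes. In WT mice 0 of 85 members and 0% of all genes were called with edgeR, and 5 members had an unadjusted p under 0.05, or 5.88% against 5.36%, while DESeq2 called 0 members and 0.0222% of all genes. Leaving out single libraries gave 2 such members without WT 0 h female 3, or 2.35% against 4.66% of all genes, to 7 without WT 0 h female 2, or 8.24% against 7.02%. The lowest p were those of Kcnip3 (log2 fold change −0.32, SE 0.09, p 0.00459) and Kcnh8 (0.68, SE 0.28, p 0.0284). In mutants 0 of 83 members were called, against 0.312% of all genes, and 11 had an unadjusted p under 0.05, 9 higher and 2 lower, or 13.3% against 11.1%, and 7, or 8.33% against 10.9%, without mutant 1 h male 1. The lowest p were those of Kcng2 (0.24, SE 0.06, p 0.00145) and Kcnk1 (0.16, SE 0.04, p 0.00167). DESeq2 called both, or 2.38% of the 84 members with an adjusted p, against 1.99% of all genes. Kcng2, Kcnip2 and Kcnk1, which rose by 3 h in the joint fit, had 1 h values above 0 in both genotypes, between 0.06 and 0.11 in WT mice and between 0.10 and 0.24 in mutants.

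Over both genotypes at 1 h, 1 of 85 members was called, and higher, or 1.18% against 1.14% of all genes. That call was lost when single libraries were dropped in 25 of 36 refits, and with the 24 libraries of 0 h and 1 h. DESeq2 called 2 members, or 2.53% of the 79 with an adjusted p, against 2.65% of all genes. At an unadjusted p under 0.05 the members were 9 of 85, 7 higher and 2 lower, or 10.6% against 12.5%. Kcnn4, a calcium-activated channel at 1.07 CPM or less in every library, was at −0.74 (SE 0.26, adjusted p 0.193). The same libraries show the response to training in transcripts known to follow neuronal activity, of which 4 of 6 (Fosb, Egr1, Npas4 and Fos) were called at 1 h with a median over the 6 of 1.06, and 1 of 6, Fosb, at 3 h (0.73, SE 0.13). The 1 h values of Kcng2, Kcnip2 and Kcnk1 over both genotypes, 0.11 to 0.15, were small beside those of the activity genes, which lay between 0.72 and 1.57 on the log2 scale.

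By subfamily at 3 h, the Kcnip genes had 3 of 4 values above 0, with 1 gene called. The Kcnk genes had 6 of 11 above 0, with 1 called, and 3 with an unadjusted p under 0.05, of which Kcnk13 (−0.25, SE 0.08, edgeR adjusted p 0.103) and Kcnk10 were lower. The silent subfamilies had 5 of 10 above 0, with Kcng2 called. The subfamilies of the inward rectifiers (6 of 13 above 0), of Kcna (3 of 6), Kcnq (3 of 5), Kcnh (5 of 8) and Kcnn (2 of 4) had no gene called. Of the genes of a list of channel partners outside the Kcn symbols, 0 of 11 tested were called at 3 h with edgeR, and 3 were under 0.05 in unadjusted p, namely Lrrc26, an auxiliary subunit of BK channels (0.37, SE 0.11, adjusted p 0.0534), and the sulfonylurea receptor genes Abcc9 (0.19, SE 0.06) and Abcc8 (0.11, SE 0.05). Of the cell type markers none was called at 3 h. At an unadjusted p under 0.05 were 3 of 4 microglial markers (1 higher, 2 lower), 2 of 4 vessel markers (lower), 1 of 4 astrocyte markers (lower), 1 of 6 striatal markers (lower) and 0 of the CA1, CA3, thalamic, interneuron, oligodendrocyte and choroid plexus markers, the last with 6 of 6 values above 0 (median 0.51). Dentate granule cell markers had 0 of 4 called and 1 with an unadjusted p under 0.05, Dsp (0.46, SE 0.16, adjusted p 0.116), and their summed group medians in WT mice were 219, 257 and 260 CPM at 0, 1 and 3 h and in mutants 243, 291 and 312 CPM. The part of any of these in the rise of the called genes was not tested.

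**Figure D3:**
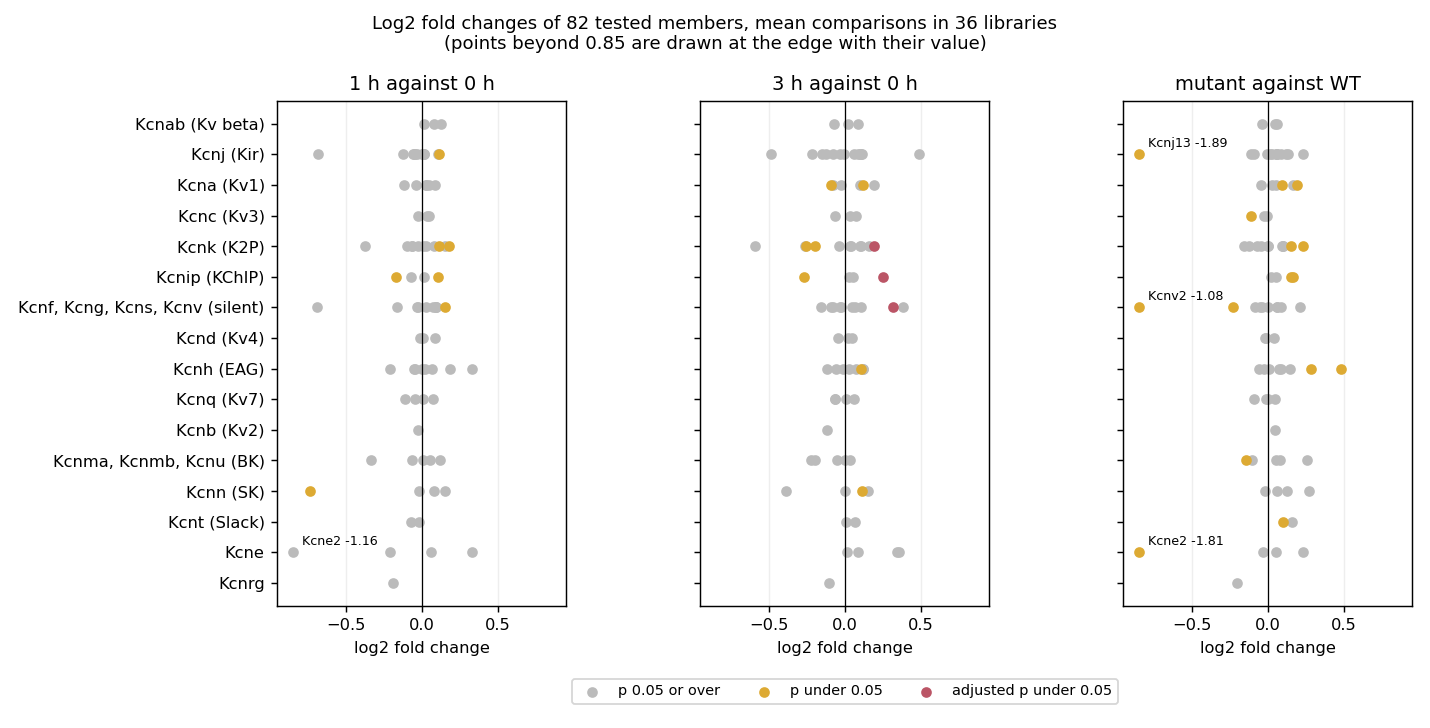
Log2 fold change of 82 of the 85 tested genes by subfamily for 1 h against 0 h, 3 h against 0 h (each over both genotypes) and mutant against WT (over the 3 times), with points coloured by p. The 3 called genes shown, Kcng2, Kcnip2 and Kcnk1 at 3 h, lie to the right of 0, and Kcnj13 and Kcne2 lie far to the left in mutants without being called by edgeR.

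Mutant and WT mice were compared to find which of these transcripts differ with the Kdm5b genotype. No potassium channel gene passed the threshold in the mean over the 3 times. With edgeR, 0 of 85 members were called, against 1.18% of all genes, and 16 members, 10 higher and 6 lower in mutants, had an unadjusted p under 0.05, or 18.8% against 15.1%. DESeq2 called 6, which were Kcnip1, Kcnh7 and Kcnk13 higher and Kcng4, Kcnmb4 and Kcnj13 lower in mutants. These were 6.82% of the 88 members to which DESeq2 gave an adjusted p, against 2.78% of all genes. The median over the members of the log2 fold change was 0.05, beside 0.00 for all genes.

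Kcnip1, a Kcnd subunit typical of inhibitory neurons, had the lowest p. Its WT levels, as lowest, median and highest, were 15.2, 15.4 and 16.5 CPM at 0 h, 15.4, 16.2 and 18.3 CPM at 1 h, and 14.9, 15.9 and 19.4 CPM at 3 h. Mutant levels were 16.4, 19.7 and 21.0 CPM at 0 h, 13.7, 16.9 and 17.4 CPM at 1 h, and 16.8, 18.3 and 23.7 CPM at 3 h. At 0 h 5 of 6 mutant libraries lay above all 6 WT libraries, at 3 h 2 of 6 did, and at 1 h none did. Mutants exceeded WT mice by a mean of 0.16 on the log2 scale (SE 0.05, edgeR adjusted p 0.0691), short of the threshold. It was called in 4 of 36 fits without 1 library, with adjusted p 0.0309 without WT 3 h female 2, 0.0388 without mutant 1 h male 3, 0.0394 without WT 1 h male 1 and 0.0477 without mutant 0 h female 3. Kcnip1 overlaps Kcnmb1 and lncRNA genes in the annotation.

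Kcnh7, a channel of the Erg type that opens slowly near rest, had medians of 20.7, 20.5 and 19.6 CPM in WT mice at 0, 1 and 3 h and of 22.7, 25.6 and 25.9 CPM in mutants. Its libraries ran from 13.6 to 27.0 CPM in WT mice and from 16.6 to 32.2 CPM in mutants, so the ranges overlap. Mutants exceeded WT mice by a mean of 0.28 (SE 0.08, edgeR adjusted p 0.0816), which was called without WT 1 h female 1 (adjusted p 0.0373) and without mutant 0 h male 1 (0.038). Kcnh7 overlaps the protein-coding gene Gca and lncRNA genes in the annotation. Kcnk13, the leak channel THIK-1, which microglia use, was at medians of 9.86, 8.97 and 8.27 CPM in WT mice and 10.4, 10.7 and 9.52 CPM in mutants (0.23, SE 0.07, adjusted p 0.0816). Microglial markers had 0 of 4 called between genotypes and 0 with an unadjusted p under 0.05. Kcnh8 was at 1.63 CPM or less in every library and at 0.48 (SE 0.15, adjusted p 0.114).

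Lower in mutants were Kcng4 and Kcnmb4, short of the threshold. Kcng4, a silent subunit like Kcng2, had medians of 11.2, 10.7 and 11.6 CPM in WT mice and 9.02, 9.81 and 9.49 CPM in mutants (log2 fold change −0.23, SE 0.07, edgeR adjusted p 0.0756). Its lowest WT library, WT 0 h male 1, was at 7.55 CPM, and without it the value was −0.26 (adjusted p 0.0193). It was also called without mutant 0 h male 1 (0.0422), WT 1 h male 1 (0.0448) or WT 3 h male 1 (0.0475). Kcnmb4 had medians of 20.1, 20.8 and 20.8 CPM in WT mice and 19.0, 19.2 and 18.8 CPM in mutants (−0.14, SE 0.04, adjusted p 0.0867), and it was called without mutant 0 h male 1 (0.038) or WT 0 h male 1 (0.0427). Both genes overlap lncRNA genes.

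**Figure D4:**
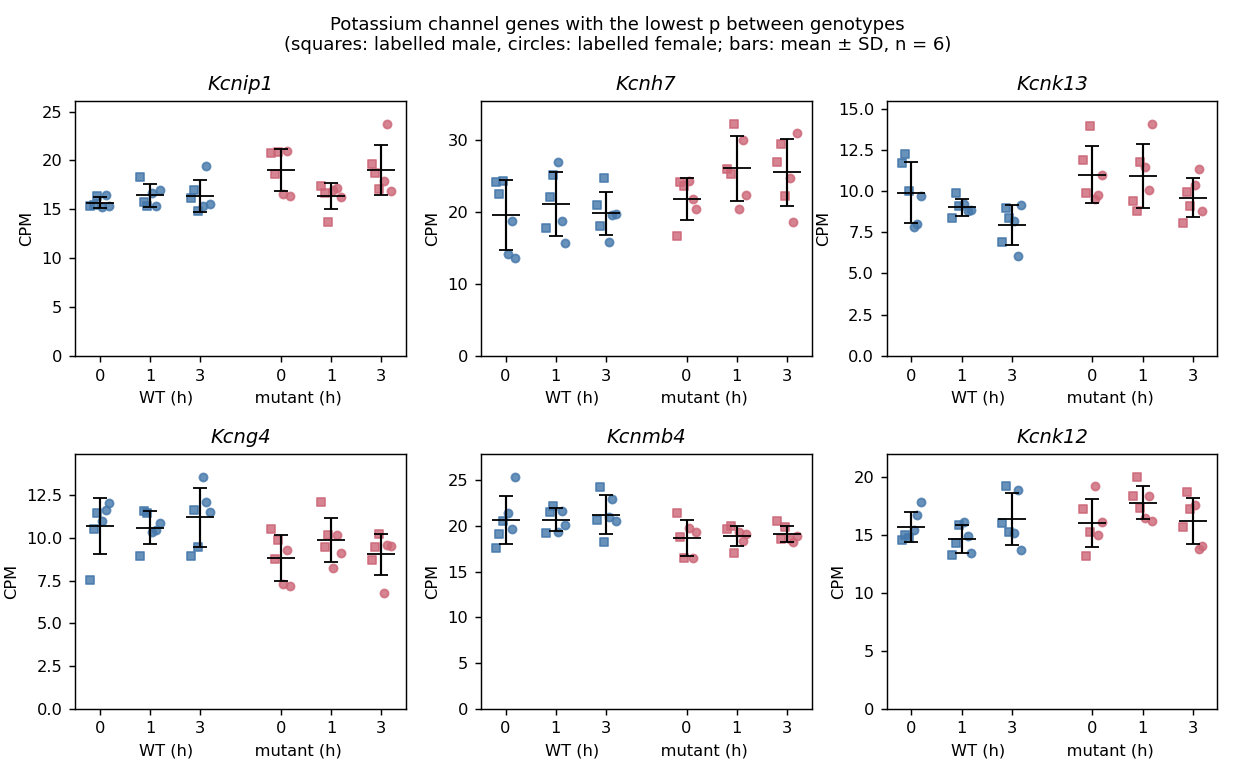
Level in CPM of the 5 genes with the lowest p between genotypes over the 3 times, and of Kcnk12, the gene with the lowest p at 1 h, in each of the 36 libraries (blue WT, red mutant), with bars for mean ± SD of 6. In every panel the mutant and WT ranges overlap at some time, and Kcnk12 is separate at 1 h, where mutant libraries lie at 16.2 CPM or above and WT libraries at 16.1 CPM or below.

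At each time alone the genotypes did not differ in any member past the threshold with edgeR. At 0 h, 0 of 83 members and 0% of all genes were called, and 5 members had an unadjusted p under 0.05, or 6.02% against 6.15%, while DESeq2 called 0 members and 0.0786% of all genes. That count of 5 ran from 1 without WT 0 h male 2, or 1.19% against 5.09% of all genes, to 11 without mutant 0 h male 1, or 12.9% against 9.04%, and it moved by over 1.5 times in 7 of the 12 fits that each lacked a library. The lowest p were those of Kcnip1 (log2 fold change 0.27, SE 0.07, p 0.00203), Kcnk2, a leak channel opened by stretch and fatty acids (0.22, SE 0.08, p 0.0219), and Kcnh8 (0.73, SE 0.31, p 0.0333). At 3 h, 0 of 83 members were called, against 0.0115% of all genes, and 8 members had an unadjusted p under 0.05, or 9.64% against 6.36%, while DESeq2 called 0 members and 0.246% of all genes. The count fell to 4 without WT 3 h female 1, mutant 3 h male 2 or mutant 3 h female 3, with 5.54%, 4.86% and 6.90% of all genes in those fits, and rose above 8 in none of the 12 fits. The lowest p were those of Kcnh7 (0.37, SE 0.12, p 0.0116), Kcng4 (−0.30, SE 0.12, p 0.0211) and Kcns1, another silent subunit (−0.46, SE 0.18, p 0.0245).

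At 1 h the members with an unadjusted p under 0.05 were 14 of 83, 12 of them higher in mutants, or 16.9% against 8.61% of all genes. The count was 9 without mutant 1 h male 3, or 10.8% against 8.10%, and 20 without WT 1 h male 3, or 24.1% against 9.04%, the lowest and highest of 12 such fits. None of these 14 was called with edgeR, as were 0% of all genes. DESeq2 called Kcnk12 and Kcnip3, or 2.25% of the 89 members with an adjusted p, against 0.509% of all genes. Kcnk12, which encodes the leak channel subunit THIK-2, was at 13.2, 14.6 and 16.1 CPM in WT mice and at 16.2, 17.8 and 20.001 CPM in mutants, so that all 6 mutant libraries lay above all 6 WT libraries (log2 fold change 0.28, SE 0.07, p 0.00111, adjusted p 0.29). At 0 h and 3 h its groups overlapped, with WT medians of 15.2 and 15.6 CPM and mutant medians of 15.7 and 16.5 CPM. Kcnip3 was at medians of 60.6 CPM in WT mice and 76.8 CPM in mutants at 1 h (0.33, SE 0.08, p 0.0016, adjusted p 0.305), and 4 of the 6 mutants exceeded every WT library. Kcnj9 was at medians of 83.9 and 99.8 CPM (0.19, SE 0.05, p 0.00243, adjusted p 0.316). Of the cell type markers none was called between genotypes at 1 h with edgeR. At an unadjusted p under 0.05 were 3 of 4 dentate granule cell markers (higher in mutants), 4 of 6 choroid plexus markers (lower) and 1 of 5 interneuron markers (lower). The other cell type lists had 0. The part of cell composition in the 1 h values was not tested.

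The difference between genotypes in the change after training was tested as an interaction term with all 36 libraries in the fit. With edgeR 0 of 85 members and 0% of all genes were called at 1 h, and 2 members lay under 0.05 in unadjusted p, or 2.35% against 3.73%, Kcnip1 (−0.28, SE 0.11, p 0.0167) and Kcnk12 (0.26, SE 0.13, p 0.0494), and Kcnmb2 was next (0.38, SE 0.20, p 0.0595). At 3 h the counts were again 0 of 85 and 0%, with 2 members under 0.05 in unadjusted p, or 2.35% against 1.76%, Kcnj14, a weakly expressed inward rectifier (0.52, SE 0.25, p 0.0417), and Kcnh3 (−0.16, SE 0.08, p 0.0487), and Kcns1 was next (−0.54, SE 0.28, p 0.0613). DESeq2 called 0 members and 0% of all genes in either test. With single libraries dropped, the counts under 0.05 ran from 1 to 6 at 1 h, the last without mutant 0 h female 1 (7.06% against 4.31% of all genes), and from 0 to 3 at 3 h, the last without WT 0 h female 2 (3.53% against 1.73%). For Kcng2, Kcnip2 and Kcnk1 the 3 h difference between genotypes, with its 95% interval (normal approximation), was 0.04 (−0.18 to 0.27) for Kcng2, −0.01 (−0.21 to 0.20) for Kcnip2 and 0.01 (−0.16 to 0.19) for Kcnk1. These intervals are wider than the 3 h changes of these genes, so a differing response was neither shown nor bounded closely.

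Kcnj13, named here after its values were seen, and Kcne2 had the largest differences between genotypes of the 85 tested members, at −1.89 (SE 0.64, edgeR adjusted p 0.136) and −1.81 (SE 0.68, adjusted p 0.181) in mutants. edgeR called neither, and DESeq2 called Kcnj13 (−1.92, adjusted p 0.0401). Both genes are known from the choroid plexus epithelium, where Kcnj13 encodes the inward rectifier Kir7.1 and Kcne2 an auxiliary subunit. Kcnj13 ran from 0.222 to 60.1 CPM in WT libraries and from 0.142 to 23.8 CPM in mutant libraries, and Kcne2 from 0.0831 to 40.8 CPM and from 0.106 to 17.2 CPM. The mutant ranges lay almost wholly within the WT ranges. All 6 choroid plexus markers (Ttr, Kl, Folr1, Aqp1, Otx2 and Clic6) moved with them, at −1.09 to −2.11 between genotypes, each with an unadjusted p under 0.05 and none called. Their sum had medians of 2089, 1040 and 2203 CPM in WT mice at 0, 1 and 3 h and of 192, 126 and 1476 CPM in mutants. The library with the highest sum, WT 3 h male 3 at 7923 CPM, also had the highest Kcnj13 and Kcne2, and the library with the lowest sum, WT 3 h female 2 at 42.9 CPM, had 0.222 CPM of Kcnj13 and the lowest Kcne2. The part of choroid plexus in the difference of these genes was not tested. Among genes above 1 CPM the next highest coefficient of variation within a group was 34.0%, for Kcnmb1.

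**Figure D5:**
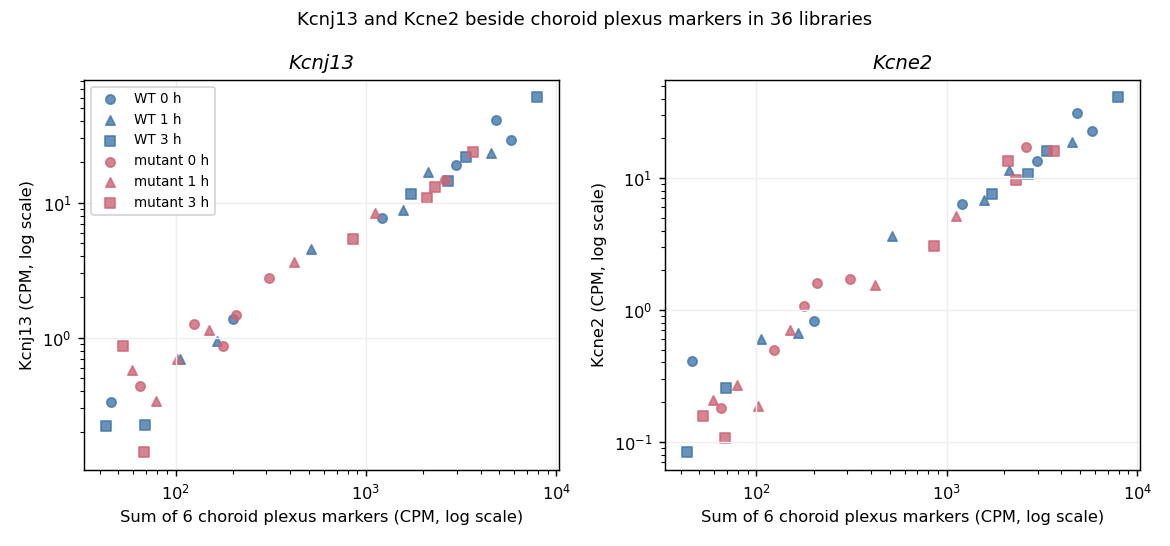
Level of Kcnj13 and Kcne2 against the sum of 6 choroid plexus markers in each of the 36 libraries, all in CPM on log axes, with colour for genotype and shape for time. Both genes rise with the marker sum from 42.9 to 7923 CPM in libraries of both genotypes.

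Other markers also differed between genotypes. Of the dentate granule cell markers, 2 of 4 were called and higher in mutants, C1ql2 (0.74, SE 0.15, edgeR adjusted p 0.0117) and Tdo2 (0.41, SE 0.10, adjusted p 0.0306). Of the other granule cell markers, Prox1 was at 0.16 (SE 0.08, adjusted p 0.318) and Dsp at −0.18 (SE 0.13, adjusted p 0.562). At an unadjusted p under 0.05 were 3 of the 4, all higher, and Dsp alone lay lower, so the list did not wholly move one way. Thalamic markers had 0 of 6 called and 4 with an unadjusted p under 0.05, all higher, and striatal markers 0 of 6 and 3, all higher. Of the other lists, CA1 had 0 of 4 called and 1 with an unadjusted p under 0.05, lower in mutants, CA3 0 of 4 and 1, higher, interneurons 0 of 5 and 2, Gad2 higher and Pvalb lower, astrocytes 1 of 4 and 2, both higher, oligodendrocytes 0 of 4 and 0, and vessels 0 of 4 and 0. The astrocyte channel gene Kcnj10 was not among the 16 members with an unadjusted p under 0.05. Of the channel partners, 0 of 11 were called and 1 had an unadjusted p under 0.05, Dpp10, an auxiliary subunit of Kcnd channels (0.19, SE 0.09, p 0.0405). Gad2, which marks inhibitory neurons, differed by 0.16 (SE 0.04, edgeR adjusted p 0.0601), with means of 181, 193 and 181 CPM in WT mice at 0, 1 and 3 h and of 223, 189 and 210.4 CPM in mutants. Pvalb differed by −0.20 (SE 0.06, adjusted p 0.0816), and Sst was at −0.09, Gad1 at 0.04 and Vip at 0.07, so the interneuron markers did not move one way either. The part of cell composition in the values of Kcnip1, Kcnh7, Kcng4 and Kcnmb4 was not tested.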

How the data were processed

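RNA-seq of dorsal hippocampus gave 36 libraries, 1 mouse each, grouped by the labels' genotype and time. Per the submitters' processing notes, the authors aligned reads with STAR 2.7.8a to mm10 and counted them per gene with featureCounts 2.0.1, and the deposited values are raw counts. The annotation, strand setting and treatment of multimapping reads are not given in the sources used here. Of the 94 members, 42 overlap another gene in the RefSeq annotation. Kcnab2, Kcnh7 and Kcnj13 are among those that overlap a protein-coding gene. Of 27179 gene IDs, 25275 matched a RefSeq name (GRCm38.p6), and the 1904 others held 1.28% of counts. Library totals ran from 40274435 to 107000233. Exon lengths came from GENCODE M21, as the union of all exons of a gene, and the counts may rest on another annotation. Levels per kb can therefore read low for genes with long or many isoforms.

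Counts were tested with edgeR 4.0.16 (quasi-likelihood, robust; limma 3.58.1, R 4.3.3) after filterByExpr (minimum count 10) and TMM scaling, with labelled sex as covariate and Benjamini-Hochberg adjustment over all genes, called under 0.05. Pairwise comparisons used the 12 libraries of their groups, and means over times or genotypes and interactions used all 36. Counts were simulated gene by gene with fitted dispersions and with no sex, time or tissue differences, unlike the libraries here. In these simulated counts the test recovered 25 of 50 genes with a log2 change of 0.25 in the genotype mean over 18049 genes and 6 of 50 in the 0 h genotype comparison over 17178, with 6 unchanged genes called in each. Alternatives were DESeq2 1.42.0, RLE size factors, no count filter, at least 10 counts in every library, no sex covariate, a replicate block, other sets of libraries in the fit, leaving out both libraries whose sex transcripts went against the label, and leaving out each library in turn. Tables and figures were made with Python 3.11.15, pandas 2.3.3, numpy 2.4.6 and matplotlib 3.10.9.

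Genes were named if called anywhere, if among the 6 lowest p in a mean comparison or the 3 lowest in another, if highest per kb in their subfamily, or if in the study's own lists, and Kcnip2 was named from earlier results of these data. Those lists were made on these libraries. The members and the gene lists were chosen with earlier results of these data known. The 8 samples of a first cohort were not analysed here. Results for some named genes are not reported here, though they count in every total.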

Additional observations from a re-analysis of the deposited data

Results flagged for a closer look

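A library stood apart from the other 5 of its group, by Dixon's gap test at the 95% level, in 7 of 120 groups examined (20 named genes in 6 groups), and chance gives about 1 in 20. In WT mice these were Kcng2 in 1 h male 1 (39.06 CPM, others 33.29 to 35.39) and Kcng4 in 0 h male 1 (7.55 CPM, others 10.54 to 12.07). In mutants they were Kcnip1 in 1 h male 3 (13.72 CPM, others 16.26 to 17.41), Kcnk1 in 1 h male 2 (110 CPM, others 99.19 to 101.9) and Kcnj14 in 3 h female 2 (1.713 CPM, others 3.14 to 3.878). Kcnip3 stood apart in mutant 0 h female 1 (100.2 CPM, others 68.45 to 80.07) and in mutant 3 h female 1 (89 CPM, others 59.1 to 66.67). The libraries WT 1 h male 1 and mutant 3 h female 2 are those whose sex transcripts went against the label, so their genotype and time are uncertain too. An exchange of their labels was not tested.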

How the results depend on the processing

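Of the 45 log2 fold changes recomputed under the alternatives (member genes chosen by p or call), 0 changed sign. Values of other named genes were not all recomputed. With DESeq2 the members called were 2 between genotypes at 1 h, 6 in the genotype mean, 4 in WT mice at 3 h, 2 in mutants at 1 h, 2 in mutants at 3 h and 2 at 1 h over both genotypes, where edgeR called 0, 0, 0, 0, 0 and 1. Over all genes DESeq2 called 2.51 times as many as edgeR (214) in the genotype mean, 406 against 208 at 1 h, 793 against 434 at 3 h, and 362 against 54 in mutants at 1 h. In the pairwise comparisons with 0 genes called by edgeR, DESeq2 called 16 and 99 between genotypes at 0 h and 1 h, 5 and 75 in WT mice at 1 h and 3 h, and 124 in mutants at 3 h. Between genotypes at 3 h it called 50 against 2. The 24 libraries of 0 h and 1 h gave 0 calls at 1 h. Without both libraries of discordant sex the genotype mean had 2 calls, Kcng4 (adjusted p 0.0378) and Kcnip1 (0.0483), and 1 h had 2. With sex and replicate number as a replicate block the genotype mean had 1 call, Kcnip1 (adjusted p 0.0366). Deviations of libraries sharing sex and number correlated at −0.24 to 0.31 (90 pairs, median 0.07), and others at a median of −0.015 (450 pairs), so the numbers were not taken to pair mice. Leaving out each library in turn gave 4 to 6 calls at 3 h, 0 to 2 at 1 h, 0 to 3 in the genotype mean, 0 to 1 in WT mice at 3 h and 0 in the other comparisons. The causes were not tested. RLE scaling moved no median log2 fold change by over 0.003.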
